A study of Arabidopsis thaliana with 8 samples.

Results

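The genes described are the cytochrome P450 genes that the array annotation names by a P450 symbol. They were chosen from the annotation alone, as probe sets naming 1 gene whose symbol is CYP followed by a family number and a letter, or CYP7 with exactly 2 more digits, keeping the brightest probe set of a gene. Cyclophilins, which share the letters CYP, were left out. The rule gave 24 genes, each with 1 probe set, of 13350 genes that a probe set names alone. Each of the 24 gene numbers was found in RefSeq's annotation of TAIR10.1, which gives a P450 symbol or synonym to 253 genes, so 9.49% of them are described here, and 19 of the 24 belong to the single subfamily CYP71B. A further 2 probe sets that name a P450 gene together with another gene were left out.

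Etiolated Arabidopsis thaliana wild-type seedlings (accession Col-0) were compared on 8 Affymetrix arrays. The ethylene group had 4 arrays of seedlings grown in the dark, with 68 h in air followed by 4 h in 10 ppm ethylene. The air group had 4 arrays of seedlings kept in the dark for 72 h without the gas, and both groups were 3 days old when frozen. Each group came from 2 experiments with 2 replicas each, so an array is called ethylene 1-2 for the second replica of the first experiment. No label says that replicas came from separate cultures, and the p-values measure the spread between these samples, which may be technical. The material is whole seedlings, so in each result a change in the number of expressing cells and a change in RNA per cell cannot be told apart.

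Cytochrome P450 enzymes are haem proteins, mostly anchored in the endoplasmic reticulum, that use NADPH and molecular oxygen to oxidise small molecules. In plants they act in the synthesis and removal of hormones such as brassinosteroids, gibberellins and abscisic acid, in lignin, flavonoid and glucosinolate pathways, and in the making of cutin and suberin. Symbols group them by sequence into families (a number) and subfamilies (a letter), and families into larger clans. Of the 24 genes, 22 belong to the CYP71 clan, which is largely made up of enzymes of specialised metabolism, 1 to the CYP85 clan (CYP718), which also holds families of brassinosteroid and abscisic acid metabolism, and 1 to the CYP51 clan (CYP51G2), the clan of sterol demethylases. The P450 genes best known for hormone synthesis, such as those of brassinosteroid, gibberellin and jasmonate pathways, are not among the 24 and are not analysed here.

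CYP718 rose strongly in ethylene, and it was the only 1 of the 24 genes called. Its intensities on the ethylene arrays were 5911 (1-1), 4738 (1-2), 5076 (2-1) and 4523 (2-2), against 155 (1-1), 223 (1-2), 648 (2-1) and 539 (2-2) on the air arrays. Every ethylene array lay far above every air array, and the lowest ethylene value was 6.98 times the highest air value. The means were 5062 ± 610 in ethylene and 391 ± 239 in air (SD, n = 4 each). On the log2(intensity + 16) scale, on which all differences below are given, CYP718 differed by 3.85 (SE 0.39, limma adjusted p = 0.000394). This is a 14.4-fold increase with a 95% interval of 7.99 to 26.1. Only 4 of the 15922 probe sets tested had a larger increase, which made CYP718 the fifth. No enzymatic role of the CYP718 protein is stated here, and its locus is AT2G42850 on chromosome 2.

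**Figure D1:**
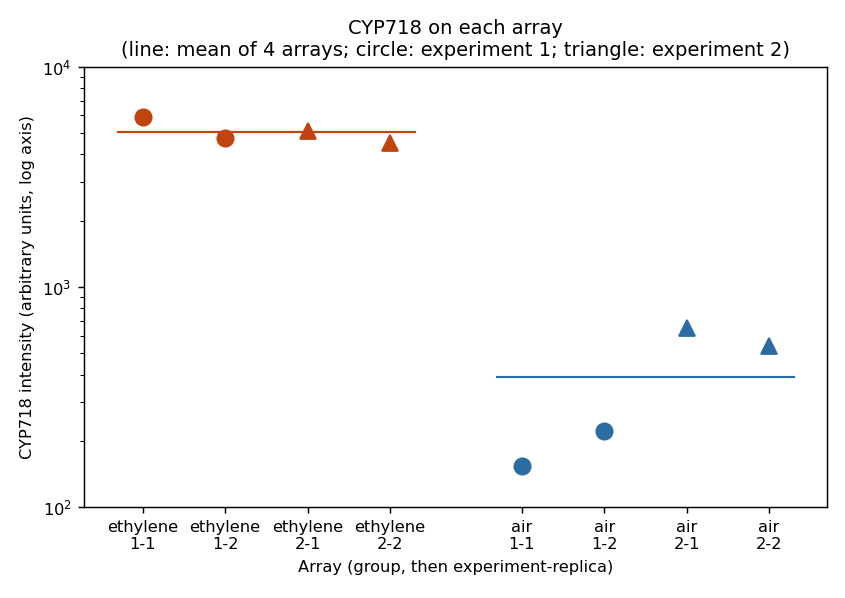
Intensity of CYP718 (arbitrary units, log axis) on each of the 8 arrays, ethylene on the left and air on the right, with circles for experiment 1, triangles for experiment 2 and a line at the mean of 4 arrays. The ethylene arrays sit between 4523 and 5911, and the air arrays between 155 and 648, with the air arrays of experiment 2 above those of experiment 1.

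The ethylene values of CYP718 lay close together, and the air values did not. The highest ethylene value was 1.31 times the lowest, while in air this ratio was 4.19. Within experiment 1 the mean intensity was 5324 in ethylene and 189 in air, a difference of 4.72 (SE 0.24, limma adjusted p = 3.03e-07). Within experiment 2 it was 4800 in ethylene and 593 in air, a difference of 2.99 (SE 0.24, limma adjusted p = 1.03e-05). The smaller difference in experiment 2 went with a brighter air signal, since the experiment 2 mean was 0.901 times that of experiment 1 in ethylene and 3.14 times in air. The difference between the 2 effects was −1.73 (SE 0.34, limma unadjusted p = 0.000215). Adjusted over all probe sets it did not pass (limma adjusted p = 0.489), as held for each of the 15922 probe sets, of which 0% were called. Dim signals on such arrays hold more background, and its part in the air values was not tested. The mean log2 value of CYP718 in air, 8.45, was above the floor of 8.05 used to leave out dim probe sets. Only 2 of the 4 air arrays, those of experiment 2, were above it, so the difference of 4.72 in experiment 1 was taken against air values under the floor.

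A probe set was tested if its mean log2 value over the 8 arrays was not among the lowest 30%, and called if its limma p, adjusted by Benjamini-Hochberg over all probe sets tested, was under 0.05. Of the 24 P450 genes, 10 were tested and 14 were too dim. Of the 10, 1 was called higher in ethylene and 0 lower with limma. Among all probe sets tested, 1.56% were called higher and 2.55% lower, so 1 of 10 rests on 1 gene and says nothing about the family. The other 9 tested genes had unadjusted p of 0.274 or more. With the experiment as a block, 4.33% of all probe sets were called higher and 7.35% lower, while the counts among the P450 genes were again 1 and 0. The median difference was 0.06 over the 10 P450 genes and 0.01 over all probe sets tested. In size, without regard to sign, the median differences were 0.191 and 0.193.

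**Figure D2:**
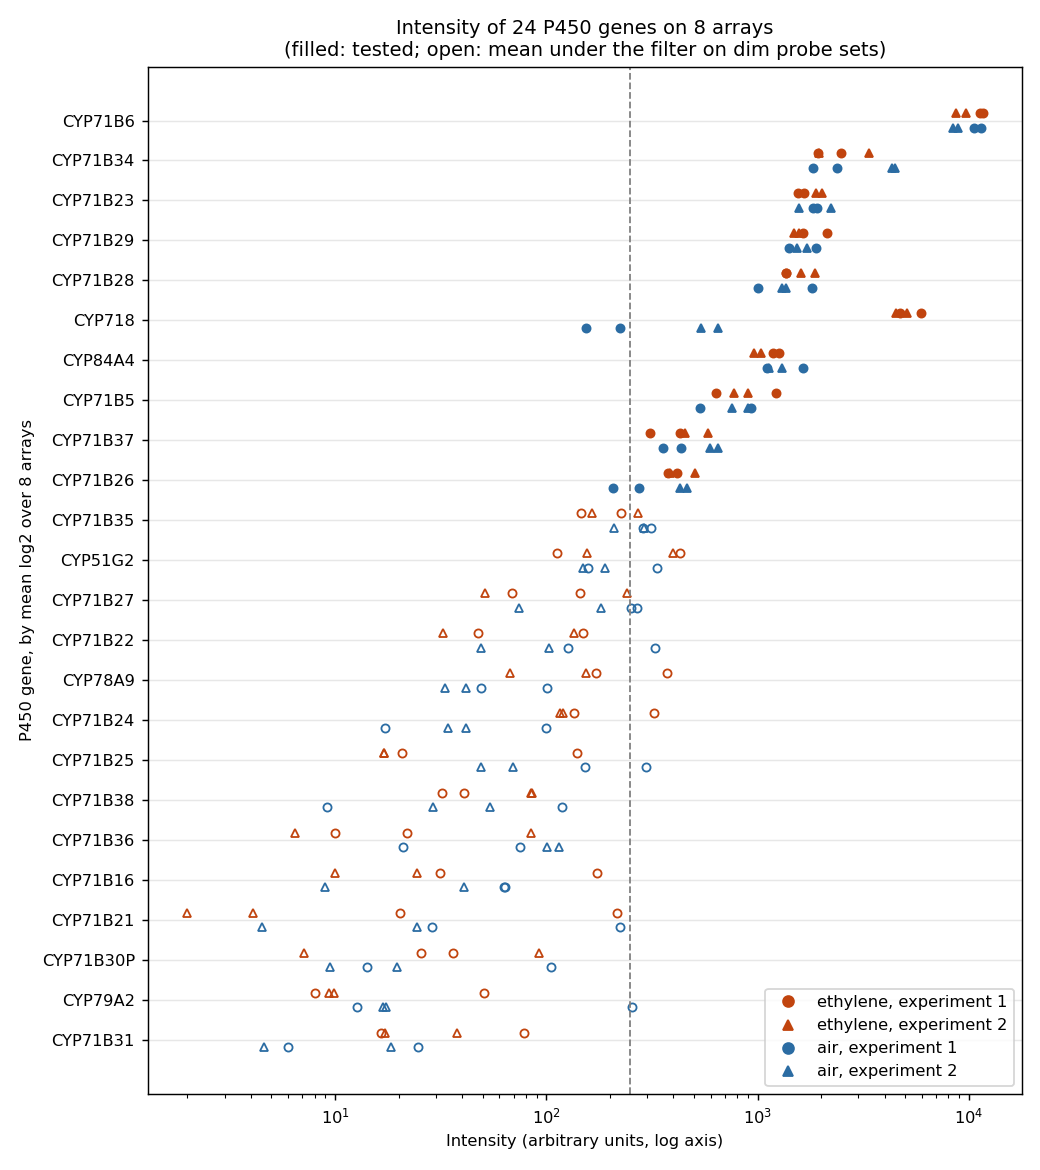
Intensity (arbitrary units, log axis) of the 24 P450 genes on the 8 arrays, each row a gene with its ethylene arrays above its air arrays. Circles stand for experiment 1 and triangles for experiment 2, symbols are filled for the 10 genes tested and open for the 14 under the filter, and the dashed line at an intensity of 249 is the filter's floor. In the row of CYP718 the groups lie far apart, and in the rows of the other 9 tested genes they overlap.

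Of the tested genes, CYP71B6 and CYP84A4 have a known product, and neither was called. CYP71B6 encodes an enzyme that converts indole-3-acetonitrile in the defence-related indole pathway. Its intensities were 11344, 11637, 9745 and 8713 on the ethylene arrays 1-1, 1-2, 2-1 and 2-2, against 10606, 11482, 8869 and 8437 on the same-numbered air arrays. The groups overlapped, and both were brighter in experiment 1 than in experiment 2. The difference was 0.07 (SE 0.16, limma adjusted p = 0.917), with a 95% interval of −0.27 to 0.42. CYP84A4 encodes a relative of ferulate 5-hydroxylase that makes precursors of arabidopyrones. It gave 1262, 1184, 959 and 1036 in ethylene, against 1105, 1639, 1312 and 1129 in air. The groups overlapped, and the difference was −0.21 (SE 0.19, limma adjusted p = 0.740, 95% interval −0.63 to 0.20).

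The other 7 tested genes were of the CYP71B subfamily, whose best-known Arabidopsis member makes the phytoalexin camalexin and is not among the genes described. No role is stated for these 7. Their limma adjusted p ranged from 0.729 to 0.954. The groups overlapped in each of the 7, as in most probe sets tested, of which 10.5% had groups that did not overlap. CYP71B34 had the lowest difference, with 1935, 2490, 3377 and 1958 in ethylene (arrays 1-1, 1-2, 2-1 and 2-2), against 1833, 2375, 4479 and 4325 in air. The 2 air arrays of experiment 2 were the brightest, and in experiment 1 the groups overlapped. Its difference was −0.35 (SE 0.30, limma adjusted p = 0.729, 95% interval −1.02 to 0.32).

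CYP71B26 had the highest difference among the genes not called, with 376, 415, 506 and 387 in ethylene, against 274, 207, 464 and 432 in air. Here the 2 air arrays of experiment 1 were the dimmest. The difference was 0.34 (SE 0.30, limma adjusted p = 0.737, 95% interval −0.32 to 1.00). CYP71B28 followed at 0.19 (SE 0.21), with intensities of 1357 to 1864 in ethylene and 1001 to 1813 in air. CYP71B5 had a difference of 0.17 (SE 0.26), with ranges of 635 to 1229 in ethylene and 534 to 931 in air. The 95% interval of each of these 3 differences included 0.

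Among these 7 tested CYP71B genes, CYP71B29 and CYP71B23 lay nearest to no difference, and CYP71B37 lay below it. CYP71B29 ranged from 1486 to 2134 in ethylene and from 1414 to 1900 in air, a difference of 0.05 (SE 0.17). CYP71B23 ranged from 1550 to 2010 in ethylene and from 1576 to 2238 in air, a difference of −0.08 (SE 0.17). CYP71B37 ranged from 309 to 580 in ethylene and from 359 to 653 in air, a difference of −0.19 (SE 0.28). Over the 9 genes not called, 5 differences were positive and 4 negative. For 7 of them the 95% interval stayed within 1 log2 unit of 0 in either direction, and the widest bound, that of CYP71B34, corresponds to a 2.03-fold decrease. That these 9 genes missed the threshold does not show that they were unchanged.

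**Figure D3:**
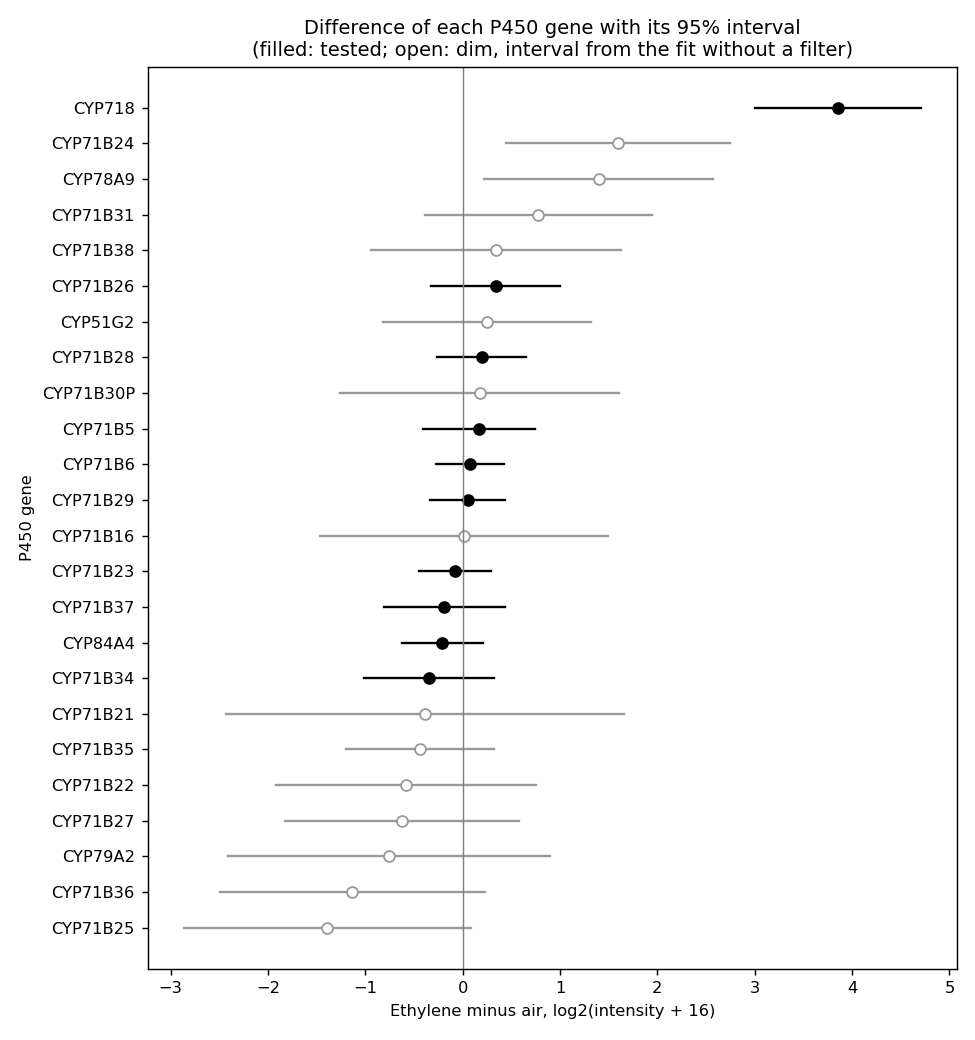
Difference of each of the 24 P450 genes, ethylene minus air on the log2(intensity + 16) scale, with its 95% interval. Filled points are the 10 genes tested, and open points the 14 dim genes with intervals from a model over all probe sets without a filter. CYP718 stands at 3.85, the other tested genes lie between −0.35 and 0.34, and the open points run from −1.39 to 1.59 with wide intervals.

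The 14 genes under the filter had a larger spread, and their differences are poorly fixed. Their intensities ran from 2.0 to 429, and 7 of the 14 had at least 1 array under 16. The spread within groups (pooled SD of the log2 values) had a median of 0.863 in these 14 genes and 0.332 in the 10 tested ones. The dimmest gene tested was CYP71B26, with a mean log2 value of 8.59, and the brightest not tested was CYP71B35, at 7.95. In a limma model over all 22746 probe sets besides controls, without a filter, 1.02% of all were called higher and 1.56% lower. CYP718 was the only P450 gene called there, and 2 of the 14 dim genes, CYP71B24 and CYP78A9, had an unadjusted p under 0.05.

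CYP71B24, with no role stated here, was the only dim gene whose groups did not overlap. It gave 325, 136, 120 and 116 in ethylene (1-1, 1-2, 2-1 and 2-2), against 99.9, 17.2, 34.3 and 41.7 in air. All 4 ethylene arrays lay above all 4 air arrays, though the lowest ethylene value was close to the highest air value. Among all 6824 probe sets under the filter, 1.33% had ethylene values all above the air values and 1.82% all below them. The difference was 1.59 (SE 0.52 and limma adjusted p = 0.192 without a filter), and adding the experiment as a term gave 0.101, in a model where 7.32% of all probe sets were called. With a pseudocount of 64 in place of 16 the difference was 1.05.

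CYP78A9, whose product is known to promote the growth of fruits and seeds, gave 171, 372, 67.6 and 154 in ethylene, against 49.0, 101, 33.2 and 41.8 in air. The groups overlapped through ethylene 2-1 and air 1-2, but within each experiment both ethylene arrays were above both air arrays. The difference was 1.40 (SE 0.54), and did not pass without a filter (limma adjusted p = 0.301) or with the experiment as a block besides (0.122).

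CYP79A2 and CYP71B31 also have known products and were near the bottom of the scale. CYP79A2, which forms phenylacetaldoxime from phenylalanine in benzylglucosinolate synthesis, gave 50.6, 8.0, 9.9 and 9.4 in ethylene, against 255, 12.7, 17.5 and 16.9 in air. On each side the first replica of experiment 1 was far brighter than the others, and its difference was −0.76 (SE 0.75). Without air 1-1 the difference was 0.02, and without ethylene 1-1 it was −1.11. In experiment 2 alone, which holds neither of these arrays, it was −0.37. CYP71B31, which oxidises linalool in flowers, gave 16.5, 78.2, 37.8 and 17.3 in ethylene, against 6.0, 24.7, 4.6 and 18.4 in air. Its difference of 0.78 (SE 0.53) was 1.41 with a pseudocount of 1, 0.36 with a pseudocount of 64 and 0.46 without ethylene 1-2.

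The lowest differences among the dim genes were those of CYP71B25 and CYP71B36, for which no role is stated. CYP71B25 gave 20.8, 139, 17.1 and 17.0 in ethylene, against 297, 152, 49.1 and 69.8 in air. The groups overlapped through ethylene 1-2, while in each experiment both ethylene arrays were below both air arrays. Its difference was −1.39 (SE 0.67), with a limma adjusted p of 0.476 without a filter. CYP71B36 gave 21.8, 10.0, 6.5 and 84.5 in ethylene, against 75.5, 21.0, 115 and 101 in air, a difference of −1.13 (SE 0.62, limma adjusted p = 0.569 without a filter).

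The remaining dim CYP71B genes lay between −0.62 and 0.34. They were CYP71B38 (0.34), CYP71B30P (0.17), CYP71B16 (0.02), CYP71B21 (−0.39), CYP71B35 (−0.44), CYP71B22 (−0.58) and CYP71B27 (−0.62). In each of these 7 genes the groups overlapped. CYP71B21 spanned the widest range, with 216, 20.2, 2.0 and 4.1 in ethylene, against 225, 28.7, 4.5 and 24.5 in air, with the first replica of experiment 1 the brightest in each group. CYP71B35 had the smallest spread of the dim genes, with 147, 226, 273 and 164 in ethylene, against 314, 287, 209 and 290 in air.

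RefSeq lists 2 of the 24 genes, CYP51G2 and CYP71B27, as transcribed pseudogenes, while CYP71B30P, whose final letter marks a pseudogene in P450 naming, is listed as protein coding. Each of the 3 was under the filter. CYP51G2, a relative of the sterol 14-alpha-demethylase gene, gave 429, 113, 157 and 398 in ethylene, against 336, 157, 149 and 190 in air. Its 2 bright ethylene arrays came from different experiments, and its difference was 0.25 (SE 0.49).

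Many of the CYP71B genes lie beside each other in the genome. By the order of genes in the RefSeq table, a run on chromosome 3 from CYP71B16 (AT3G26150) to CYP71B37 (AT3G26330) holds 25 genes, of which 18 are CYP71B genes and 11 of those are described here. In this run 4 genes were tested (CYP71B23, CYP71B26, CYP71B34 and CYP71B37) and 7 were too dim. None of the 4 was called, 3 of the 11 had a positive difference and 8 a negative one, beside a median difference of 0.00 over all probe sets. CYP71B24 at 1.59 and CYP71B25 at −1.39, which had the most positive and the most negative difference of the run, are separated in it by 6 genes that are not P450 genes.

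Direct neighbours among the 24 genes differed in whether they were bright enough to test. Of 7 pairs of members next to each other, 4 joined a tested gene to one under the filter, such as CYP71B22 beside CYP71B23 and CYP71B34 beside CYP71B35. The differences were 0.19 and 0.05 for CYP71B28 and CYP71B29 on chromosome 1, and −0.44 and −1.13 for CYP71B35 and CYP71B36 on chromosome 3. None of the genes in these pairs was called with limma, and hybridisation shared between close relatives was not tested. CYP718 has no P450 gene beside it, and its neighbour AT2G42860 was under the filter at 0.46.

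**Figure D4:**
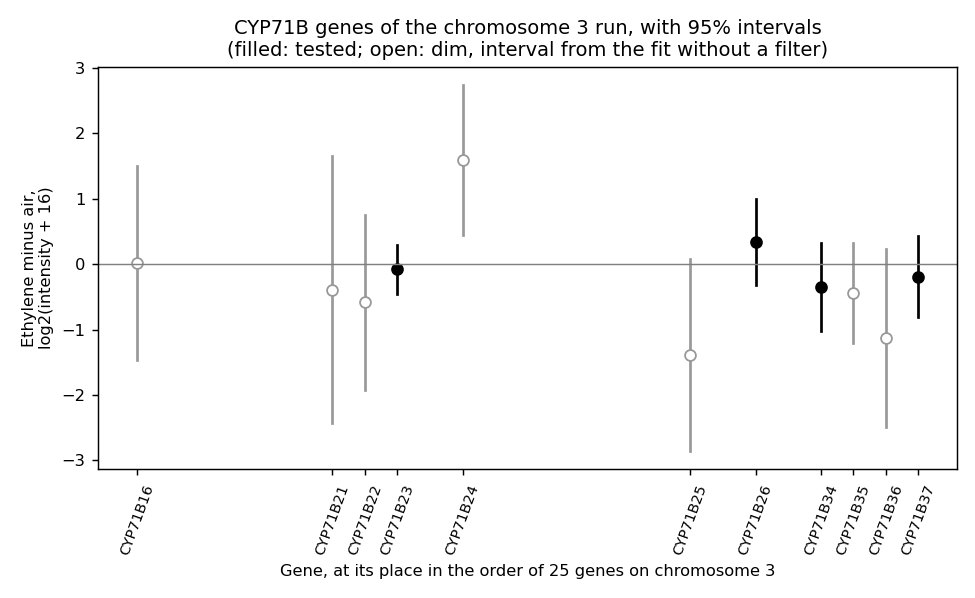
Difference, ethylene minus air on the log2(intensity + 16) scale with 95% intervals, of the 11 CYP71B genes measured in the chromosome 3 run, placed by their order among its 25 genes. Filled points are genes tested and open points dim genes. The 4 filled points lie between −0.35 and 0.34, and CYP71B24 (1.59) and CYP71B25 (−1.39) are the extremes, both dim.

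The level of the P450 genes, averaged over ethylene and air, was compared between the 2 experiments. In experiment 2, 18.2% of all probe sets were higher than in experiment 1 and 12.4% were lower. Of the 10 tested P450 genes, 2 were higher and 1 was lower, shares near that background. Counts from so few genes say nothing about the family. CYP718 was higher by 0.72 (SE 0.17, limma adjusted p = 0.00691), CYP71B34 by 0.65 (SE 0.18, limma adjusted p = 0.0142), and CYP71B6 fell by 0.33 (SE 0.10, limma adjusted p = 0.0269). These sizes depend on the scaling, since median intensity was 928 to 980 on the arrays of experiment 2 and 833 to 910 on those of experiment 1. With arrays at the same median the differences were 0.58 for CYP718, 0.51 for CYP71B34 and −0.48 for CYP71B6, and each still passed. The shares of all probe sets with that scaling are not given here. For CYP718 the average joins opposite directions, since its mean log2 value in experiment 2 was 12.23 in ethylene and 9.25 in air, and in experiment 1 it was 12.37 in ethylene and 7.66 in air. The CYP71B34 call ended without air 1-1 (0.0516), ethylene 1-1 (0.0600) or ethylene 2-1 (0.0646). The CYP71B6 call was lost on leaving out an array (0.0548 to 0.0909), except for air 1-1 or ethylene 2-1, with which left out it passed (0.0431 and 0.0329).

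The response to ethylene was also compared between the experiments gene by gene. Within experiment 1, and likewise within experiment 2, CYP718 was the 1 tested P450 gene called, where 6.19% and 6.26% of all probe sets were called. For CYP71B34 the difference was 0.07 in experiment 1 and −0.77 in experiment 2, an unadjusted limma p of 0.0317 for the change in effect and an adjusted p of 0.860. Of the 9 tested genes not called, 5 had the same sign in both experiments. Of the 14 dim genes, 10 did, among them CYP71B24 (1.87 and 1.31), CYP78A9 (1.63 and 1.16), CYP71B36 (−0.89 and −1.37) and CYP71B25 (−1.60 and −1.18). The dim genes named here had the largest differences in size. Such a difference is the mean of the values in the 2 experiments, so their shared sign follows largely from that choice. The share of all probe sets with the same sign in both experiments was not counted, so these counts say nothing about P450 genes.

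**Figure D5:**
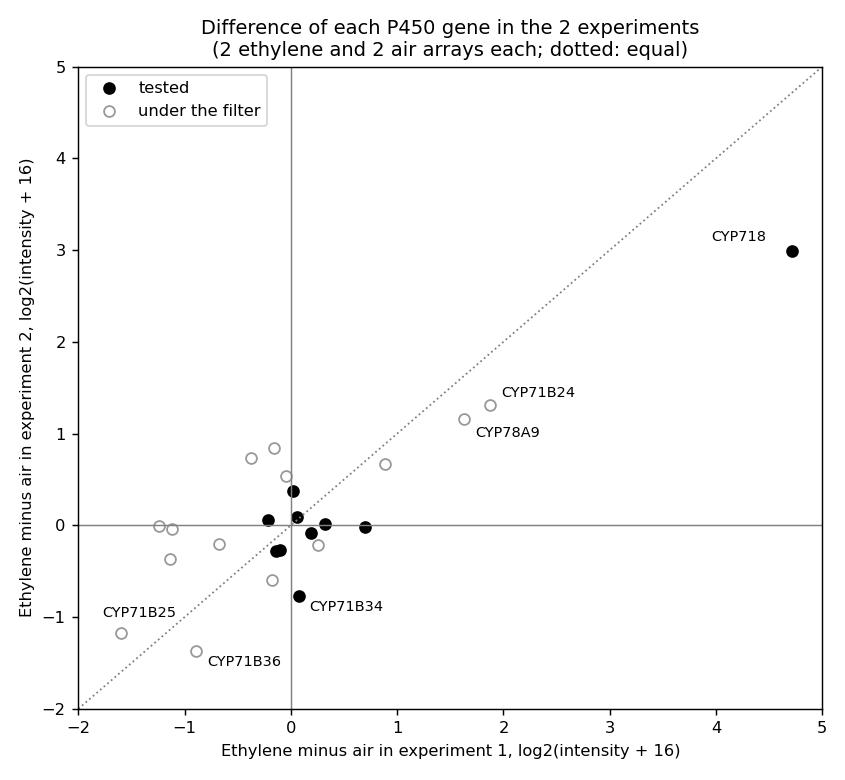
Difference of each P450 gene, ethylene minus air on the log2(intensity + 16) scale, in experiment 1 (horizontal) and experiment 2 (vertical), each from 2 ethylene and 2 air arrays. Filled points are the 10 genes tested, open points the 14 under the filter, and the dotted line marks equal differences. CYP718 lies at 4.72 and 2.99, and CYP71B24 and CYP78A9 are positive in both experiments.

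P450 enzymes act with other enzymes, and 12 lists of such partners were drawn up from textbook knowledge. Their genes gave 20 with a probe set of their own, of which 12 were tested, and with limma 0 were called higher and 0 lower, against 1.56% and 2.55% of all probe sets. Of the 12, WSD1 alone had an unadjusted p under 0.05 (0.00316). The median difference of the 12 was −0.06. The lists of redox partners, of brassinosteroid and sterol, gibberellin, triterpene and cytokinin genes had no gene measured here.

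WSD1, a wax ester synthase gene of the cutin, suberin and wax list, had the lowest difference. Its mean was 457 ± 80.7 in ethylene and 1185 ± 546 in air (SD, n = 4 each), and all ethylene arrays lay below all air arrays, where 10.5% of all probe sets tested had groups apart in either direction. The difference was −1.24 (SE 0.33, limma adjusted p = 0.0674), and with the experiment as a fixed block it passed (limma adjusted p = 0.00117). In experiment 2 alone it also passed (−1.63, limma adjusted p = 0.00241), and in experiment 1 alone it did not (−0.85, adjusted p = 0.274). It did not pass with a random block joining same-group replicas of one experiment (adjusted p = 0.160 with an estimated correlation). That block does not pair ethylene with air arrays by experiment. Of 21 alternatives run for WSD1, 7 passed and 14 did not. FACT, a caffeoyltransferase gene of the same list, was at 0.02 (adjusted p = 0.989).

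In the phenylpropanoid and lignin list, HCT, whose shikimate ester product is a substrate of a P450 enzyme of lignin synthesis, averaged 19391 ± 3678 in ethylene and 26080 ± 6053 in air. Its difference of −0.42 (SE 0.20, limma adjusted p = 0.391) passed with the experiment as a block (limma adjusted p = 0.0171), which made 2 genes of the 12 lower with that block, where 7.35% of all probe sets were. With replicas averaged and the experiment as a block, HCT also passed (limma adjusted p = 0.0221). Averaging leaves 1 value for each group and experiment, so this p rests largely on the spread that limma takes from other probe sets. With the random block, which does not pair the groups, 0 of the 12 were lower (HCT adjusted p = 0.771 with an estimated correlation). In separate fits of experiment 1 alone (0.139) and experiment 2 alone (0.218), HCT did not pass. It passed in 4 of 22 alternatives and not in the other 18. CCOAMT, the other gene of that list, was at 0.00. The flavonoid glycosyltransferase genes UGT78D1 and UGT78D2 were at −1.04 (SE 1.03) and −0.46 (SE 0.33). For glucosinolates, UGT74B1 and GSTU20 were at −0.21 and 0.17. The abscisic acid glucosyltransferase gene UGT71C5 was at −0.11, the jasmonate pathway gene OPCL1 at 0.12, and the carotenoid genes Z-ISO and LYC at 0.08 and −0.01. None of the genes named since HCT passed with or without the block.

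Markers of the tissue were few in the annotation. The etiolated seedling list gave PORB and ICL, of protochlorophyllide reduction and of the use of seed oil, whose summed intensity was 102677 to 175606 on the ethylene arrays and 81119 to 123907 on the air arrays. The root list gave 2 of 11 genes, the root hair expansin genes EXPA7 and EXPA18. Their summed intensity was 5572 to 6860 in ethylene and 3163 to 5317 in air, and EXPA7 rose by 0.82 (SE 0.20, limma adjusted p = 0.0483) while EXPA18 was at 0.44 (adjusted p = 0.266). With the block, EXPA18 (limma adjusted p = 0.0452) and PORB, at 0.60, also passed (0.0247). Among all probe sets tested, 1.56% were called higher without the block and 4.33% with it. The shoot list gave CLV3, at 8.3 to 41.6 in ethylene and 15.9 to 183 in air, and the lists of seed storage and floral genes gave none. The part of any shift in cell types in the increase of CYP718 was not tested.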

How the data were processed

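The values were intensity values on a linear scale as deposited by the authors, 1 for each of 22810 probe sets on an array. The sources used here do not give the scanner software, probe summary or detection calls. With 2% of values trimmed at each end, the mean was 2500.2 on each of the 8 arrays. The number of arrays limits the precision. Intensities were converted to log2(intensity + 16), and 64 control probe sets and the dimmest 30% were left out. The other 15922 probe sets entered limma 3.58.1 (R 4.3.3; lmFit, and eBayes with a trend) with group as the only term. A second limma model with a mean for each experiment and group gave the values within and between experiments. P-values were adjusted over all probe sets tested. Tables and plots used Python 3.11.15, pandas 2.3.3 and matplotlib 3.10.9. The fit was tested on simulated data that had no difference between experiments, unlike the arrays used here.

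Per the labels, arrays of both groups share numbered experiments, which pair them. Deviations from the group means correlated at 0.28 to 0.593 between ethylene and air arrays of the same experiment, and at −0.551 to −0.252 otherwise. Deviations cancel out within a group, so the negative sign of the second range follows largely from the first. A block for the experiment was therefore tried, beside other pseudocounts, filters, scalings, replicate structures and the removal of each array. RefSeq served only for names and gene order, so no coordinates are given. The genes, lists and tests were chosen with earlier results of these data known. The naming rule took P450 genes that were called, had a listed role or had the 5 highest or lowest differences among those tested and not called, and, of each other list, called genes or the one with the smallest p. Other dim P450 genes and other pathway genes were named after their values were seen. The symbols FDH and CHI were dropped from the lists, since the array annotation gives them to other genes.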

Additional observations from a re-analysis of the deposited data

Results flagged for a closer look

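In 4 of the 48 groups of 4 arrays formed by the 24 P450 genes, 1 array lay far from the other 3 on the log2(intensity + 16) scale, where chance flags about 1 in 20 groups. All 4 are in genes under the filter on dim probe sets. CYP79A2 was far brighter on ethylene 1-1 (50.6) and on air 1-1 (254.9) than on the other arrays of its group. Its difference of −0.76 became 0.02 without air 1-1 and −1.11 without ethylene 1-1. The brightest ethylene value of CYP71B24 was on 1-1 (325.1), well apart from the rest, and without that array its difference was 1.27 in place of 1.59. CYP71B25 was brighter on ethylene 1-2 (139.1), and without that array its difference was −1.93 in place of −1.39.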

How the results depend on the processing

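The increase of CYP718 passed in all 22 alternatives run, with differences of 2.99 (experiment 2 alone) to 4.72 (experiment 1 alone), and the counts of 1 P450 gene higher and 0 lower were the same in each. With the experiment as a replicate block its adjusted p was 5.63e-07, and without 1 array its difference lay between 3.51 (without air 1-1) and 4.16 (without air 2-1). The block changed no other call among the P450 genes. The number of P450 genes higher in experiment 2 was 4 in place of 2 with eBayes without a trend, and 1 to 2 without 1 array. The number lower was 0 in place of 1 without a trend, and 0 to 1 without 1 array. Of the other pathway genes, 2 in place of 0 were lower with the experiment, or the experiment and replica number, as a replicate block, with averaged replicas and a block, and with the block and no filter, which was added after seeing the data. There was 1 with arrays at the same median or in experiment 2 alone, and 0 to 1 without 1 array (WSD1, without air 1-1, adjusted p = 0.0351). The causes were not tested. Each gene had 1 probe set, so averaging its probe sets leaves all values as they are. Without detection calls, the signal over background of the 14 dim genes is unknown.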
